A study of Mus musculus with 86 samples.

Results

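Stromal transcription factors are 7 genes, Foxd1, Meis1, Meis2, Tcf21, Ebf1, Ebf2 and Nfia, picked by symbol from the 12360 genes of a table of single-cell expression in the mouse embryonic kidney. They were picked with results of these cells in view, and the choice rests on their levels, their co-detection and their presence in cells that express Six2. Those values are therefore given as a description. The 86 cells came from the metanephros of wild type mice of mixed background, male and female pooled, at 12.5 days post coitum (Theiler stage 20). Kidneys were pooled and dissociated with trypsin, and single cells were caught on a Fluidigm C1 instrument, whose chambers were inspected under a microscope. Full-length cDNA was made with the SMARTer kit, and Nextera XT libraries were sequenced on a HiSeq2500. The labels name no cell type and no second condition, and the pool makes all cells 1 sample, so no difference was tested.

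The kidney stroma is the connective tissue progenitor population around the nephron-forming cap mesenchyme. It gives rise to interstitial fibroblasts, pericytes and mesangial cells, and it signals to the cap. Six2 is the homeodomain factor that keeps cap mesenchyme cells in the progenitor state. Foxd1 is the forkhead factor used to mark the cortical stroma. Meis1 and Meis2 are TALE homeodomain proteins that bind DNA together with other homeodomain proteins. Tcf21 is a basic helix-loop-helix factor of the mesenchyme around epithelia. Ebf1 and Ebf2 are early B-cell factors, zinc-binding helix-loop-helix proteins that also act in mesenchyme, and Nfia belongs to the nuclear factor I family.

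The 4 genes Foxd1, Ebf1, Ebf2 and Nfia were detected together in more cells than the product of their single shares gives, so the promoters of those found in the RefSeq promoter table are shown. Of the 7 members, 6 matched that table (build GRCm38.p6), Ebf1 with more than 1 start, of which the upstream one is printed. Each line is the 250 bases before the start, 5′ to 3′ on the gene's strand, and capitals mark letters of a searched motif.
Foxd1, chr13:98353995-98354244, plus strand: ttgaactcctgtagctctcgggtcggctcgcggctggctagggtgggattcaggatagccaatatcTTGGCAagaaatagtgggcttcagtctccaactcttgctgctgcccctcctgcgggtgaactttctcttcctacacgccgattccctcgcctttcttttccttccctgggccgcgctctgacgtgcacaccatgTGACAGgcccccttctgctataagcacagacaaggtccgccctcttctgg
Ebf1, chr11:44617850-44618099, plus strand: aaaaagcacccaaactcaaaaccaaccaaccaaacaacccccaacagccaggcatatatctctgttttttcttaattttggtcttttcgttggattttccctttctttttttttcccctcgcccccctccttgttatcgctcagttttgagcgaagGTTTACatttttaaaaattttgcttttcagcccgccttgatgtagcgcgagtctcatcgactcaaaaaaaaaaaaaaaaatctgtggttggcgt
Nfia, chr4:97581693-97581942, plus strand: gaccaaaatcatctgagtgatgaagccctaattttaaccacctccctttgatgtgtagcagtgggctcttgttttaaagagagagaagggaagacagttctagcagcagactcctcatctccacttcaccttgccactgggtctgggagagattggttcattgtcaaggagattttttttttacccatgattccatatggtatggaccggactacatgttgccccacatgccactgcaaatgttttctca
On both strands, the forkhead letters TGTTTAC and their core GTTTAC, the MEIS letters TGACAG, the nuclear factor I letters TTGGCA and the E-box CAGCTG were searched. GTTTAC lies within TGTTTAC, and the other motifs do not contain each other. The Foxd1 window held TTGGCA, which stood in 12.3% of all 32851 windows, and TGACAG, which stood in 15.9%. The Ebf1 window held GTTTAC, found in 6.92% of windows. The Nfia window held none of these letters. TGTTTAC (3.17% of windows) and CAGCTG (13.0%) stood in no member's window. A match describes the letters in these windows, not a bound site.

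Expression was measured as RPKM, which scales a gene's reads to transcript length and to sequencing depth, and detection meant 1 RPKM or more. Cells had a median of 6164 detected genes (3458 to 7100). Reads per cell, estimated from the steps between low RPKM values, had a median of 2010239 (306013 to 6176163). Six2 was detected in 49 cells, and 37 cells were without it. The Six2-detecting cells had a median of 6327 genes and 2036904 reads, against 6095 genes and 1965300 reads in the cells without Six2. An RPKM of 1 stood for about 4.95 reads of Foxd1, 2.47 of Tcf21, 9.10 of Ebf2, 22.7 of Nfia and 4.24 of Six2 at the median depth. Cells could thus hold reads of a gene and still fall below the limit: values above 0 and below 1 RPKM were listed in 27 cells for Ebf1, 20 for Nfia, 17 for Ebf2, 4 for Foxd1 and 2 for Tcf21. Ureteric bud markers stood apart in 7 cells, which detected at least 6 of 9 such genes, and 3 of those cells detected Six2. No doublet caller was run, and 2 cells in 1 chamber cannot be told apart from 1 cell with both sets of RNA.

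The members fell into broadly detected genes and genes of a subset of cells. Meis1 and Meis2 were each detected in 83 of 86 cells (96.5%, exact Clopper-Pearson 95% interval 90.1 to 99.3%), and Tcf21 in 75 cells (87.2%, 78.3 to 93.4%). Foxd1 was detected in 59 cells (68.6%, 57.7 to 78.2%) and Nfia in 57 (66.3%, 55.3 to 76.1%). Ebf1 was detected in 35 cells (40.7%, 30.2 to 51.8%) and Ebf2 in 25 (29.1%, 19.8 to 39.9%). These intervals, and those below, cover counting error only. By median RPKM over all cells the order was Meis1 at 107, Tcf21 at 54.7, Meis2 at 46.9, Nfia at 16.6, Foxd1 at 4.78, Ebf1 at 0.228 and Ebf2 at 0. The ranges over cells of all 7 overlapped, and differences between neighbours in this order were not tested. Where Ebf2 was detected its median was 28.7 RPKM, above the 8.95 RPKM of Foxd1 in the cells that detected it.

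**Figure D1:**
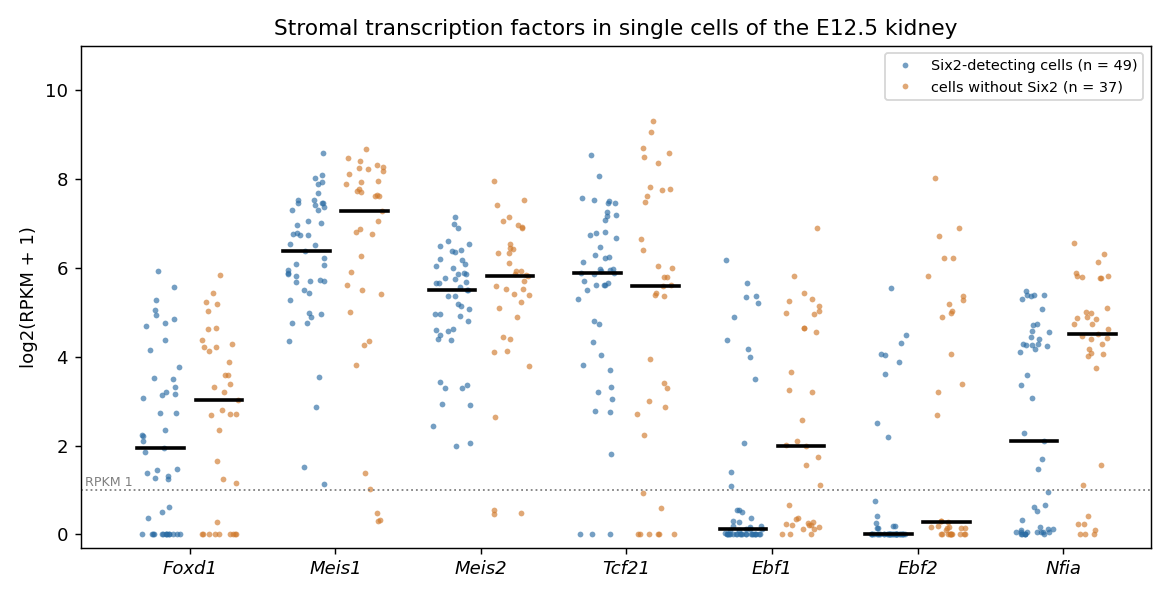
Level of each stromal transcription factor, log2(RPKM + 1), in 49 Six2-detecting cells (left of each pair) and 37 cells without Six2 (right). Each point is 1 cell, the black bar is the median and the dotted line is the detection limit; Meis1, Meis2 and Tcf21 fill the upper range in both classes, while Ebf1 and Ebf2 lie near 0 in most Six2-detecting cells.

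Foxd1 (chr13:99124200-99126660, mm9, gene 15229) was found in both classes. It was detected in 32 of 49 of them (65.3%, 50.4 to 78.3%), against 27 of 37 cells without Six2 (73.0%, 55.9 to 86.2%). Its RPKM in the Six2-detecting cells ran from 0 over a median of 2.83 to 60.2, and in the cells without Six2 from 0 over 7.09 to 56.4. The classes overlapped over nearly their whole range. The cell at 60.2 RPKM counted as Six2-detecting on about 1 read of Six2 (1.50 RPKM), while cells without Six2 held up to 3 such reads. The next highest Foxd1 value among Six2-detecting cells was 46.9 RPKM. At a limit of 3 RPKM for both genes Foxd1 was detected in 47.9% of Six2-detecting cells, and at 10 RPKM in 21.4%. An RPKM of at least 10 was reached in 13 Six2-detecting cells and in 15 cells without Six2. The mean was 8.92 ± 13.6 RPKM in Six2-detecting cells and 11.9 ± 13.9 RPKM in the others (SD over cells), a log2 ratio of -0.38 after adding 1 RPKM to each mean, and -0.55 without the cell at 60.2 RPKM. The 7 bud-marker cells, 3 of them Six2-detecting, detected a median of 6 of 15 cap genes and 4 of 20 other stroma genes. In them Foxd1 was detected in 3 and reached at most 5.53 RPKM, and 20 Six2-detecting cells lay above that value. Within the Six2-detecting cells the Foxd1 level did not follow the Six2 level by rank (Spearman rho -0.04 over 49 cells that share a pool and a sequencing run). For the other members rho with Six2 in these cells was -0.46 for Meis1, -0.39 for Ebf2 and -0.34 for Nfia. It was -0.33 for Tcf21, -0.27 for Ebf1 and 0.07 for Meis2.

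Meis1 (chr11:18780431-18918972, gene 17268) and Meis2 (chr2:115687000-115890794, gene 17536) were detected in all 49 Six2-detecting cells (100%, 92.7 to 100%), and each in 34 of 37 cells without Six2 (91.9%). Meis1 ran from 1.21 over a median of 82.9 to 384 RPKM in the Six2-detecting cells, and from 0.230 over 155 to 411 RPKM in the cells without Six2. Its mean was 106 ± 83.2 RPKM in Six2-detecting cells, against 158 ± 124 RPKM without Six2, a log2 ratio of -0.58. As a difference of mean log2(RPKM + 1), Meis1 stood at only -0.05 and Meis2 at -0.24. Meis2 ran from 2.97 over 44.6 to 141 RPKM in Six2-detecting cells and from 0.378 over 55.1 to 247 RPKM in the others, with a log2 ratio of -0.50. Both genes thus had high values in both classes, and the classes overlapped. Tcf21 (chr10:22537079-22539934, gene 21412) was detected in 46 Six2-detecting cells (93.9%, 83.1 to 98.7%) and in 29 cells without Six2 (78.4%, 61.8 to 90.2%). The cells without Six2 include 4 bud-marker cells, and Tcf21 was at 0 RPKM in each of these. Its direction depended on the measure. The mean was 78.0 ± 75.8 RPKM in Six2-detecting cells and 119 ± 165 RPKM without Six2, a log2 ratio of -0.60, while the difference of mean log2(RPKM + 1) was 0.57, higher in Six2-detecting cells. The medians, 58.0 RPKM with Six2 and 47.2 RPKM without it, also had the Six2-detecting cells on top, and the cells without Six2 held the highest single value, at 630 RPKM.

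Ebf1 (chr11:44431636-44818674, gene 13591) was detected in 13 of 49 Six2-detecting cells (26.5%, 14.9 to 41.1%), against 22 of 37 cells without Six2 (59.5%, 42.1 to 75.2%). Its RPKM ran from 0 over a median of 0.0811 to 71.0 in Six2-detecting cells and from 0 over 2.94 to 118 in the others. The log2 ratio of -0.99 lay just outside a limit of -1, which Ebf1 reached in 11 of 12 alternative settings. Ebf2 (chr14:67852129-68048604, gene 13592) was detected in 9 Six2-detecting cells (18.4%, 8.76 to 32.0%) and in 16 cells without Six2 (43.2%, 27.1 to 60.5%). It ran from 0 over a median of 0 to 45.6 RPKM in Six2-detecting cells, and from 0 over 0.205 to 260 RPKM in the others. Its mean was 3.10 ± 8.23 RPKM with Six2 and 25.2 ± 50.1 RPKM without, a log2 ratio of -2.67, which was -1.57 as a difference of mean log2(RPKM + 1). The log2 ratio was -2.11 without 5 cells with few detected genes, of which 3 detected Ebf2, among them the cell at 260 RPKM. In the bud-marker cells neither Ebf gene was detected, with highest values of 0.220 RPKM for Ebf1 and 0.130 RPKM for Ebf2.

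Nfia (chr4:97248634-97785567, gene 18027) was detected in 27 Six2-detecting cells (55.1%, 40.2 to 69.3%), against 30 cells without Six2 (81.1%, 64.8 to 92.0%). It ran from 0 over a median of 3.28 to 43.7 RPKM in Six2-detecting cells and from 0 over 21.9 to 94.0 RPKM in the others. The mean was 11.9 ± 14.4 RPKM with Six2 and 27.3 ± 24.2 RPKM without, a log2 ratio of -1.13. Ebf2 and Nfia were thus the 2 of 7 members at or below -1, a limit reached by 7.03% of all genes, and none reached 1, which 6.22% of all genes did. The members' median log2 ratio was -0.60, against 0.01 over all 12360 genes. The contrast took part in the choice of the genes, so these counts only describe them. Near the detection limit, the lowest value called detected and the highest below it were 1.24 and 0.527 RPKM for Foxd1, 1.17 and 0.930 for Nfia, 1.14 and 0.587 for Ebf1, 3.58 and 0.696 for Ebf2, and 1.50 and 0.527 for Six2.

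**Figure D2:**
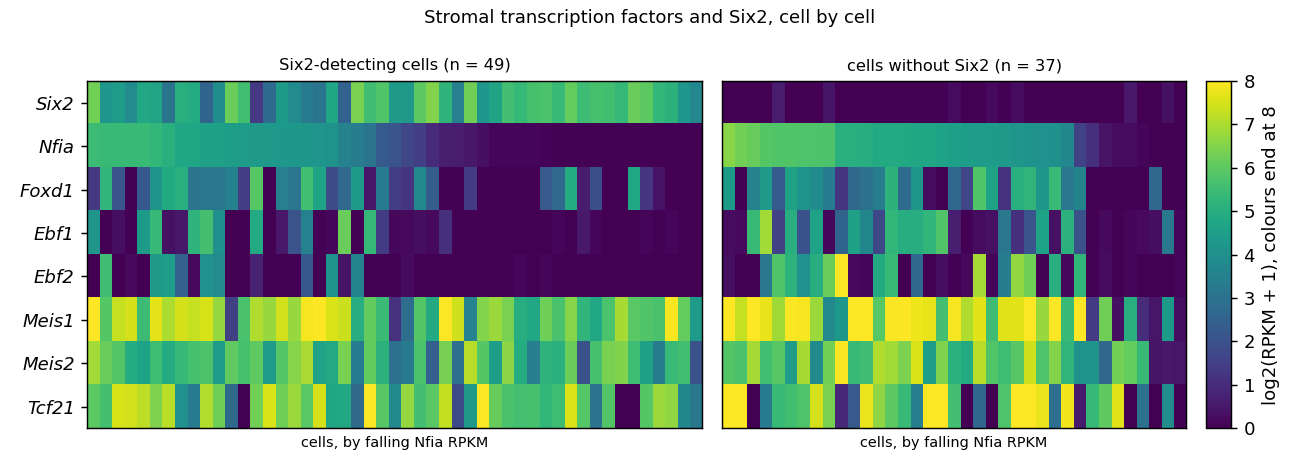
Map of Six2 and the 7 stromal transcription factors in each cell, as log2(RPKM + 1) by colour. Columns are cells, the 49 Six2-detecting ones on the left and the 37 without Six2 on the right, each ordered by falling Nfia; the columns with Ebf2 at 1 RPKM or more all have Nfia too, while Meis1, Meis2 and Tcf21 are lit nearly throughout.

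Co-detection was read over the 21 pairs of members. Every one of the 25 cells with Ebf2 also detected Foxd1 and Nfia, where the product of the single shares gives 17.2 and 16.6 cells. Of the 35 cells with Ebf1, 33 detected Nfia (23.2 from single shares) and 30 detected Foxd1 (24.0 from single shares). Foxd1 and Nfia were found together in 50 cells (39.1 from single shares), and Ebf1 and Ebf2 in 17 (10.2 from single shares). All 6 pairs among these 4 genes came out at least 1.2 times above the product, between 1.25 and 1.67 times. The other 15 pairs, with ratios from 0.991 to 1.05, could not reach 1.2: their ceiling is 1.04 with Meis1 or Meis2 and 1.15 with Tcf21, which are found in most cells, so the 2 sets of pairs cannot be compared by this ratio. Among all other genes of the table, 7.60% passed 1.2 with Foxd1, 15.8% with Ebf1, 15.9% with Ebf2 and 11.9% with Nfia.

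The nesting of Ebf2 within Foxd1 and Nfia was complete at the detection limit of 1 RPKM and not at others. At 0.1 RPKM 33 of 39 Ebf2 cells detected both, at 3 RPKM 21 of 25 and at 10 RPKM 11 of 20. Of 4088 genes detected in 20 to 50 cells, 0.0489% had every cell also positive for Foxd1, 0.342% for Nfia and 0.0245% for both. The gene behind the last share was Ntn1, the secreted guidance protein netrin-1. Where Ebf2 was detected, Foxd1 ran from 1.24 over a median of 17.7 to 56.4 RPKM, against 0 over 1.60 to 60.2 RPKM in the 61 cells without Ebf2. Nfia ran from 1.97 over 25.7 to 58.3 RPKM with Ebf2, and from 0 over 1.78 to 94.0 RPKM without it. Meis1, detected nearly everywhere, had a median of 196 RPKM (13.0 to 411) with Ebf2 and 67.6 RPKM (0.230 to 384) without it. Spearman rho among the 4 genes lay between 0.38 and 0.55 over the 86 cells.

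**Figure D3:**
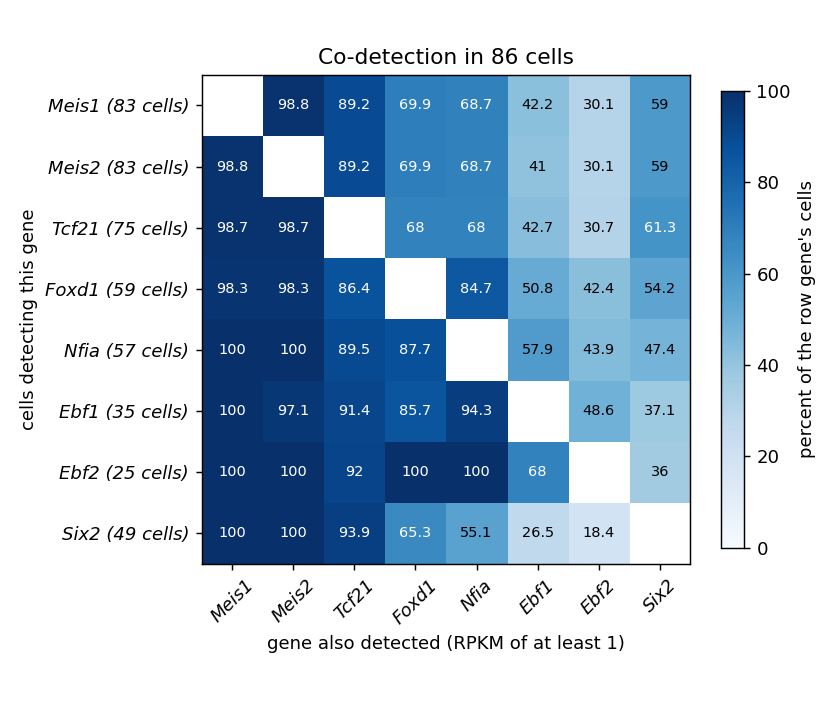
Co-detection among the 7 stromal transcription factors and Six2 in 86 cells. Each square gives the percent of cells detecting the row gene that also detect the column gene, at an RPKM of at least 1; the Ebf2 row reads 100 for Foxd1 and Nfia, and the Six2 row reads 65.3 for Foxd1, 55.1 for Nfia and 18.4 for Ebf2.

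Every Ebf2 cell detected Foxd1 and Nfia at 1 RPKM, so within each class of cells the Ebf2 nesting could only be complete. The counts by class are given as a description. Among Six2-detecting cells all 9 Ebf2 cells detected Foxd1 and Nfia, and 12 of 13 Ebf1 cells detected Nfia. Among cells without Six2, all 16 Ebf2 cells detected both, and 21 of 22 Ebf1 cells detected Nfia. The 9 cells with Six2 and Ebf2 held Ebf2 between 3.58 and 45.6 RPKM and Six2 between 4.97 and 82.6 RPKM. In the cell with the highest Ebf2 of these, Ebf2 stood at 45.6 RPKM beside Six2 at 17.4, Foxd1 at 37.6 and Nfia at 41.2 RPKM. In the cell with the highest Six2 of these, Six2 stood at 82.6 RPKM beside Ebf2 at 11.3, Foxd1 at 19.6 and Nfia at 9.26 RPKM. Of the 9 cells, 0 reached the median over detecting cells of all of Six2, Ebf2, Foxd1 and Nfia (31.6, 28.7, 8.95 and 22.7 RPKM). Six2 and Ebf2 were found together in fewer cells than single shares give (9 cells, 14.2 from single shares), as were Six2 and Ebf1 (13, 19.9 from single shares) and Six2 and Nfia (27, 32.5 from single shares). Foxd1 came close to its single share, at 32 cells and 33.6 from single shares.

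Counted per cell, Six2-detecting cells held a median of 4 members (2 to 7, mean 4.59 ± 1.38 SD over cells), and cells without Six2 held 6 (0 to 7, mean 5.19 ± 1.88). The difference of medians, -2, was -1.5 without the bud-marker cells or without the few-gene cells, and -1 without these and the low-read cells. At least 6 members were found in 16 Six2-detecting cells (32.7%) and in 21 cells without Six2 (56.8%). All of Foxd1, Ebf1, Ebf2 and Nfia were found in 4 Six2-detecting cells, against 13 without Six2. None of these 4 was found in 13 Six2-detecting cells, against 5 without Six2. Meis1, Meis2 and Tcf21 were found together in 46 Six2-detecting cells and in 27 without Six2. The Six2-detecting cells with at least 6 members had a median of 6502 detected genes and 1600536 reads, against 5793 genes and 2217906 reads in those with at most 3. The part of depth and gene number in these counts was not tested.

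**Figure D4:**
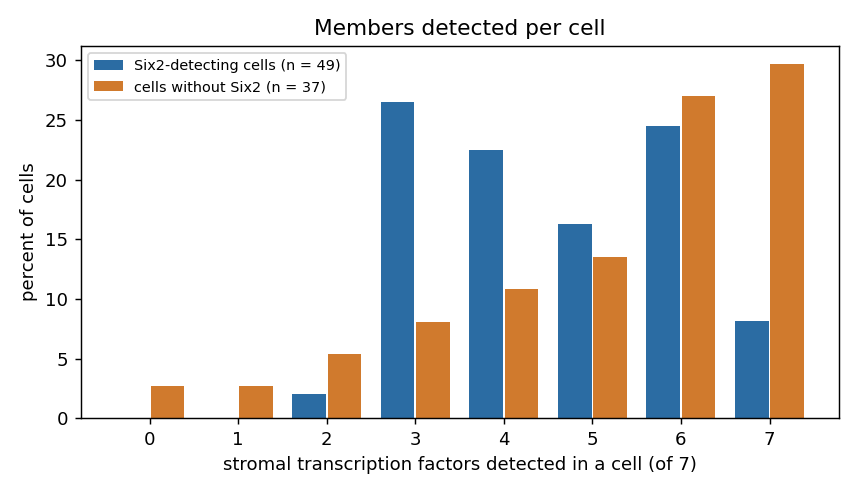
Number of the 7 stromal transcription factors detected per cell, as percent of 49 Six2-detecting cells (left bar of each pair) and of 37 cells without Six2 (right bar). The Six2-detecting cells have their highest bar at 3 members (13 cells), with a bar nearly as high at 6 (12 cells), and the cells without Six2 have theirs at 7.

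The Six2-detecting cells were split by Nfia and read for a list of 20 other stroma genes, itself chosen with results of these cells known. The split was not among the planned results. Col3a1 and Col1a2 of this list are among the genes most like Nfia over the same cells, so the counts only describe these cells. The 27 Six2-detecting cells with Nfia detected a median of 11 of these genes (4 to 15), against 3.5 (1 to 6) in the 22 without Nfia. Here "without Nfia" means below 1 RPKM: only 6 of the 22 cells had Nfia listed at 0, and the rest held lower values above 0. Pdgfra, a platelet-derived growth factor receptor of mesenchyme, was detected in 18 of the 27 and in 0 of the 22. Its partner receptor Pdgfrb was detected in 12 and 0, the adhesion molecule Vcam1 in 15 and 0, and Ntn1 in 11 and 0. A count of 0 in 22 cells allows a share of up to 13.6%. Among the fibrillar collagens, Col3a1 was detected in 22 of the cells with Nfia and in 1 without, and Col1a1 in 24 with and 2 without. Col3a1 had a median of 10.9 RPKM with Nfia and 0.0839 RPKM without it. The detected share was higher with Nfia for 19 of the 20 stroma genes, by a median of 37.0 percentage points, against 3.37 points over all 12360 genes. A share higher by at least 50 points was found for 6 of the 20 stroma genes, and for 0.332% of all genes, Nfia itself included. A share lower by at least 50 points was found for none of them, and for 0.00809% of all genes.

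By detected share, the cap mesenchyme genes differed in both directions across this split. The cells with Nfia detected a median of 11 of 15 cap genes other than Six2 (7 to 15), and those without it 10.5 (6 to 14). Of the 15 genes, 7 had a higher share with Nfia and 7 a lower one, with a median difference of 0. By level the balance was different. The median RPKM was higher with Nfia for Meox1, Gdnf, Hoxa11 and Spock2, and equal for Hoxc11. It was lower with Nfia for all other cap genes, such as Sall1 (47.8 RPKM with Nfia, 88.7 RPKM without). Meox1, a homeobox gene, was detected in 88.9% with Nfia and 59.1% without, and Itga8, an integrin subunit, in 63.0% with Nfia and 86.4% without. Cited1, a transcriptional coregulator of early nephron progenitors, was detected in 17 of 27 cells with Nfia and in 12 of 22 without, at medians of 2.86 RPKM with Nfia and 17.5 RPKM without. Eya1, a cofactor of Six2 and its relatives, was detected in 24 of 27 with Nfia and in 21 of 22 without. Six2 had a median of 19.3 RPKM (1.50 to 82.6) with Nfia and 43.0 RPKM (10.1 to 88.9) without it, and Crym, a thyroid hormone-binding protein, 299 and 609 RPKM. The ranges overlapped for Six2. The cells with Nfia had a median of 6539 detected genes and 1598211 reads, against 5876.5 genes and 2148323 reads without it, and the part of these in the result was not tested.

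**Figure D5:**
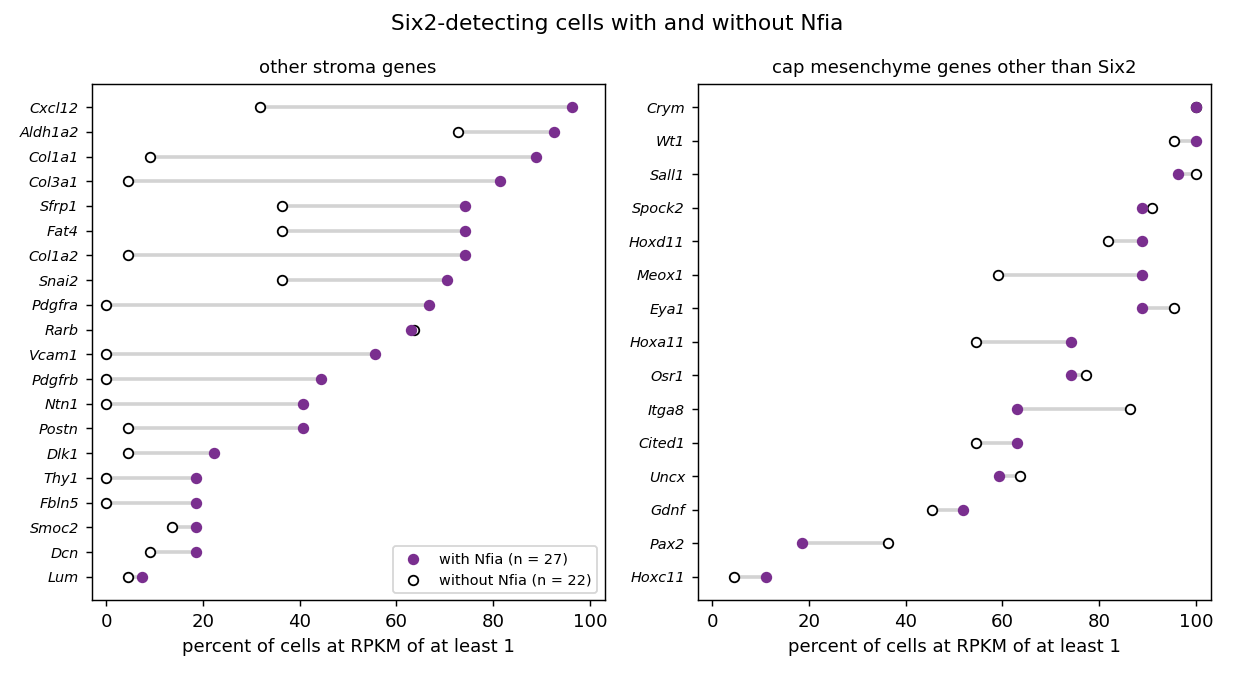
Percent of Six2-detecting cells in which each gene was detected at an RPKM of at least 1, in 27 cells with Nfia (filled) and 22 cells without Nfia (open). The left panel has 20 other stroma genes, of which 6 were detected in no cell without Nfia, and the right panel has 15 cap mesenchyme genes, of which 7 lie higher with Nfia and 7 lower.

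The same split was made outside the Six2-detecting cells. Among cells without Six2, Pdgfra was detected in 23 of 30 with Nfia and in 0 of 7 without, and Col3a1 in 27 and 0, and 0 of 7 cells allows a share of up to 42.9%. Over all 86 cells, each of the 41 cells with Pdgfra, 32 with Pdgfrb, 32 with Vcam1 and 29 with Ntn1 also detected Nfia. Nfia had 14 such genes among the 4088 detected in 20 to 50 cells. Others of these 14, named after their values were seen, were Cd248, the pericyte and fibroblast protein endosialin (26 cells), Bgn, the proteoglycan biglycan (23 cells), and Agtr2, an angiotensin receptor (21 cells). Split by Foxd1 in place of Nfia, the Six2-detecting cells gave other counts. Pdgfra was detected in 17 of 32 with Foxd1 and 1 of 17 without, and Col3a1 in 19 and 4. The medians of other stroma genes were 10 with Foxd1 and 4 without, and of cap genes 11 and 10.

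By Spearman rho of RPKM over the 86 cells, the genes most like Nfia were Col3a1 (0.76), Ldb2 (0.74), a LIM domain-binding cofactor, and Col1a2 (0.73). Nfia had 74 of 10627 genes at 0.5 or above, the most of the 7 members. Ebf2 had 28, among them Anxa2 (0.64), which encodes an annexin, and Lgals1 (0.62), which encodes galectin-1. Foxd1 had 23, led by Mme (0.63), a membrane metalloendopeptidase, Lgals1 (0.62) and the chemokine Cxcl12 (0.61). Meis1 had 20, led by Gm3892 (0.67), Ldb2 (0.64) and Pdgfra (0.62), and Ebf1 had 10, led by Dnm3os (0.57), Col1a2 (0.55) and Pdgfra (0.54). Meis2 and Tcf21 had none at 0.5. The highest were 0.47, 0.45 and 0.41 for Meis2 with Zeb1, Nr2f2 and Hoxc8, and 0.45, 0.43 and 0.42 for Tcf21 with Cox19, Napg and Mapk6. The genes named depended on the measure. By Pearson r of log2(RPKM + 1), 2 of the 3 were kept for Meis1 and Meis2. For Foxd1, Ebf1, Ebf2 and Nfia 1 was kept, and for Tcf21 0. The 3 for Nfia were then Lgals1, Nfib and Ldb2. These cells share a pool, a library preparation and a run, and such correlations in sparse values are no finding.

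Relatives and partners of the members came from a list of 26 genes, of which 22 were in the table. Their median log2 ratio, Six2-detecting cells over the others, was -0.09. Of the 22, 4 lay at or below -1 and 1 at or above 1. Over all 12360 genes these shares were 7.03% and 6.22%, so the 1 gene is near the share of all genes. The highest was Foxd2 (1.25), a relative of Foxd1, which was detected in 31 Six2-detecting cells and in 11 without Six2. Foxp1, a forkhead factor, followed at 0.60. The lowest were Ebf3 (-1.50), a relative of Ebf1 and Ebf2, and Pknox2 (-1.30), a TALE relative of Meis1. Nfib, a relative of Nfia, also lay below -1, at -1.26, with medians of 11.7 RPKM with Six2 and 39.4 RPKM without.

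Markers of the cell types around the stroma were set beside the same contrast. Of all 12360 genes, 7.03% lay at or below -1 and 6.22% at or above 1. The 20 other stroma genes had 13 at or below -1 and none at or above 1 (median -1.34), with Lum (-3.05) and Col1a2 (-1.76) lowest and Fbln5 (0.34) and Thy1 (0.13) highest. The cap mesenchyme genes had 9 of 16 at or above 1 and none at or below -1 (median 1.07). The 9 and the median include Six2 itself (5.10), which defines the classes and was bound to pass. Cited1 (3.16) was the next highest, and Pax2 (-0.83) and Hoxc11 (-0.62) were lowest. Six2-detecting cells detected a median of 6 other stroma genes (1 to 15), against 12 (1 to 19) in cells without Six2. Their summed stroma RPKM ran from 6.62 over a median of 219 to 864, against 5.71 over 859 to 1847. The ureteric bud list had 4 of 9 genes at or below -1, with Krt18 (-1.53) and Calb1 (-1.45) lowest and Cdh1 (0.23) highest. The induced nephron list had 4 of 9, with Lhx1 (-1.75) lowest and Wnt4 (0.23) highest. Wnt4 was detected in 9 Six2-detecting cells and in 2 without Six2. The mural list had 3 of 6, with Acta2 (-3.26) and Rgs5 (-1.76) lowest and Mcam (0.82) and Des (0.79) highest. Acta2, the smooth muscle actin gene, was detected in no Six2-detecting cell, which allows a share of such cells of up to 6.12%, and in 6 cells without Six2. Of 7 endothelial genes 1 was in the table, Emcn (-1.99), and of 7 blood genes none. The part of these lists in the members' values was not tested.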

How the data were processed

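RNA of 86 single cells of 1 pool was measured. The authors deposited RPKM values of 12360 genes for these cells, on the linear scale, and per the file headers the table lists genes that passed an RPKM of 3 in 3 or more cells. Another deposited table of 450 genes in 35 of these cells holds RPKM values, a count of cells passing a limit and the authors' signed fold score. It lists no member and was used only to know which 35 cells it covers. TopHat 1.4.1, DESeq and the build mm9 are named, without their roles, per the submitters' processing notes. What multimapped reads contributed is not given in the sources used here.

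A gene was detected at an RPKM of at least 1, for members and for Six2. Detected shares have exact Clopper-Pearson 95% intervals. A count of 0 was given a limit of 3 counts. Cells are not replicates of the pool, so no test was made. A log2 ratio is that of (mean RPKM + 1), Six2-detecting cells over the others, called at a size of 1. Where a symbol stood on several rows (the 12360 rows hold 12334 symbols), the row with the highest mean was used. Mapped reads per cell were estimated from the steps between low RPKM values of 4515 genes with 1 transcript, at least 40 of them on the step of 1 read in each cell. Depth estimates were tested on simulated reads. The ratio was tested on shuffled values of well-expressed genes found in nearly all cells, with large known changes. That test does not cover genes found in a subset of cells, such as Ebf1, Ebf2 and Nfia. Reads carry no molecular identifiers, so limits and intervals cover counting error only.

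The members and gene lists were chosen with earlier results of these data known. Besides the members and Six2, the named genes are the 3 with the highest Spearman rho with each member (detected in at least 10 cells), and the 2 highest and 2 lowest log2 ratios of each list. Some genes that this rule picks are not reported here. Other genes were named from the lists, or after their values were seen. Promoter sequences are those of RefSeq. Alternatives were other detection limits, another pseudocount, the mean of log2 values, the authors' 35 cells as the Six2 class, and leaving out few-gene, bud-marker or single cells. Leaving out cells with under 500000 estimated reads was chosen after seeing the data. The splits of cells by Nfia and by Foxd1 were not among the planned results. Python 3.11.15, numpy 2.4.6, pandas 2.3.3, scipy 1.17.1 and matplotlib 3.10.9 were used.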

Additional observations from a re-analysis of the deposited data

How the results depend on the processing

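The called log2 ratios of Ebf2 and Nfia and the difference in members per cell kept their sign under every alternative. Reversal was not scored for the other values. Of 75 alternatives to the main counts and shares, 63 were scored as close to them. The rule was loose, and scored 15 pairs against 20, and 3 members against 2, as close. The pairs above their single shares, 20 of 21, were 10 at a limit of 0.1 RPKM and 11 without the few-gene, bud-marker and low-read cells. In those settings 11 and 6 pairs included a gene found in every cell, which cannot exceed the product. Of the 6 pairs among Foxd1, Ebf1, Ebf2 and Nfia, 4 stayed at or above 1.2 times the product in each of these settings. The members at or below a log2 ratio of -1 numbered 4 at 10 RPKM, against 2 at 1 RPKM (Foxd1, at -1.04, and Ebf1, at -1.70, were added), and 2 to 3 when single cells were left out. The third member was Ebf1. The share of Ebf2 cells with both Foxd1 and Nfia was 84.6% at 0.1 RPKM, 84.0% at 3 RPKM and 55.0% at 10 RPKM, against 100% at 1 RPKM.

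Among Six2-detecting cells with Nfia, Col3a1 was detected in 57.1% at 10 RPKM (81.5% at 1 RPKM) and Pdgfra in 42.9% (66.7% at 1 RPKM). Among those without Nfia, Col3a1 was detected in 41.2% at 0.1 RPKM, in 0% at 3 RPKM, in 0% without low-read cells and in 0% without all 3 kinds of cell, against 4.55%. The cause of these shifts was not tested. The log2 ratio ranged from -3.02 to -2.26 for Ebf2, -1.26 to -0.70 for Ebf1 and -1.21 to -1.04 for Nfia when single cells were left out. Ebf2 stood at -1.62 at 0.1 RPKM and at -1.57 by mean log2 values. With the authors' 35 cells as the Six2 class, Ebf1 stood at -1.70. Tcf21, not called, stood at -0.60 by means and at 0.57 by mean log2 values.

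No paired analysis was possible because the labels give 1 group of cells. All values rest on 1 pool of kidneys and 1 sequencing run. Cells of shallow depth can miss short or weakly expressed genes, and in these the limit of 1 RPKM can stand for a single read. Reads below the limit were not called detected, which touched 27 cells for Ebf1, 20 for Nfia and 17 for Ebf2.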
